A study of Bos taurus with 8 samples.

Results

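Interferon-stimulated genes were examined in the rumen wall of young cattle. The set holds 32 genes, taken as a named list of textbook members and matched to the array by the gene name of each probe, older names included. Of these, 28 had a probe and 17 had a probe bright enough to be tested, out of 10206 tested genes in all. The samples were rumen epithelium from 4 rumen-fistulated Holstein bulls, numbered 21, 23, 24 and 25, each measured on both diets, which gave 8 single-colour Agilent arrays (4 control, 4 WP). All animals received a high-grain ration. On the control diet it contained corn flakes, and on the WP diet wood kraft pulp, a cellulose fibre product, replaced 50% of the corn flakes. The series text describes 5 bulls of 7.4 ± 0.3 months and 215.2 ± 20.4 kg, fed each diet for 14 days in a cross-over with no wash-out between diets, so that each animal went straight from its first diet to its second. The sources used here do not give the period in which each animal received a diet, so period and diet cannot be told apart for any one animal. No genetic alteration or drug is named in the labels.

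Interferons are cytokines that cells release when they sense foreign nucleic acid or when lymphocytes are activated. They bind paired receptors on the cell surface, and the receptor-bound kinases JAK1 and TYK2 phosphorylate transcription factors such as STAT2, which acts with IRF9 in the complex ISGF3 to switch on the interferon-stimulated genes. The products of these genes bind viral RNA, block viral assembly, tag proteins with the ubiquitin-like protein ISG15, load peptides onto class I molecules and attract T cells. Epithelia that face microbes express part of this programme without infection.

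On the question of diet, no interferon-stimulated gene passed the test. Of the 17 tested members 8 lay above and 9 below their control level on WP, with a median difference of -0.0038 on the log2 scale, against 0.087 over all tested genes. None was shifted the same way in all 4 animals. Between animals, too, 0 of 17 members passed an adjusted p of 0.05. An unadjusted p under 0.05 was found for 5 members between animals, MX1 among them (4.98% of all probes), and for 0 between diets (6.99% of all probes). IFIH1, also among the 5, was bright enough to be tested only through the arrays of calves 24 and 25, where it was high. Its place among the 5 therefore supports nothing. The median correlation between members over the 8 arrays was 0.031. The classical members IFIT1, IFIT3, IFI6, IRF1 and CXCL11 were not well above background on any array.

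A level is log2 of the scanner's processed signal minus the 75th percentile of that array, so a level of 0 equals the 75th percentile and a difference of 1 is a doubling. Levels of different probes depend on each probe's own binding and are not compared with each other. A probe was tested if the scanner software marked it well above background on at least 4 of the 8 arrays, and the brightest such probe stands for its gene. Since the arrays measured bulk tissue, fewer cells of a type and less RNA per cell cannot be told apart in any value given here. Each animal had 1 array per diet, and the 4 animals are the replicates.

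The arrays shared 1 slide and 1 scan date. The number of probes well above background ranged from 9314 to 11917. The array of calf 24 on WP stood apart, with a median negative-control signal of 4.06 against 1.20 to 1.90 on the other 7 arrays. The arrays lay in 2 slide rows: row 1 held WP for calves 21 and 23 and control for calves 24 and 25, and row 2 held the other diet of each animal. Both arrays of an animal lay in the same slide column, so a difference between animals and one between columns cannot be told apart. Of the 18 fixed epithelial markers with a probe, 17 were tested, keratins KRT5 and KRT14 among them, each well above background on all 8 arrays.

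Of the 28 members with a probe 60.7% could be tested, against 68.2% of all 15008 probes. The 15 members well above background on all 8 arrays were ISG15, MX1, IFIT5, IFI16, DDX58, IRF7, STAT2, CXCL10, GBP4, PSMB8, TAP1, UBA7, USP18, XAF1 and BST2. MX2 was well above background on 6 arrays, the exceptions being WP of calves 23 and 24. IFIH1 was so on 4 arrays, both diets of calves 24 and 25. A median signal below 113, the median of all tested probes, was found for 11 of the 17 tested members.

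A further 11 members had a probe that was too dim to test. IFIT1 and IFIT3 (RNA-binding proteins of the IFIT family), IFI6 (a small membrane protein), the transcription factor IRF1 and the chemokine CXCL11 were well above background on 0 arrays. OAS2, which makes the second messenger that activates RNase L, the chemokine CXCL9 and the immunoproteasome subunit PSMB9 were so on 1 array, that of calf 24 on WP. IFIT2 was so on 2 arrays (control of calf 23, WP of calf 24), RSAD2 on 2 (control of calf 25, WP of calf 24) and IRF9 on 2 (control of calf 21, WP of calf 24). Of these 11 members, 9 were highest on the WP array of calf 24, the array with the higher negative-control signal, and its part in these values was not tested. OAS1X, OAS1Y, IFI44 and IFI44L had no probe and are not analysed here.

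**Figure D1:**
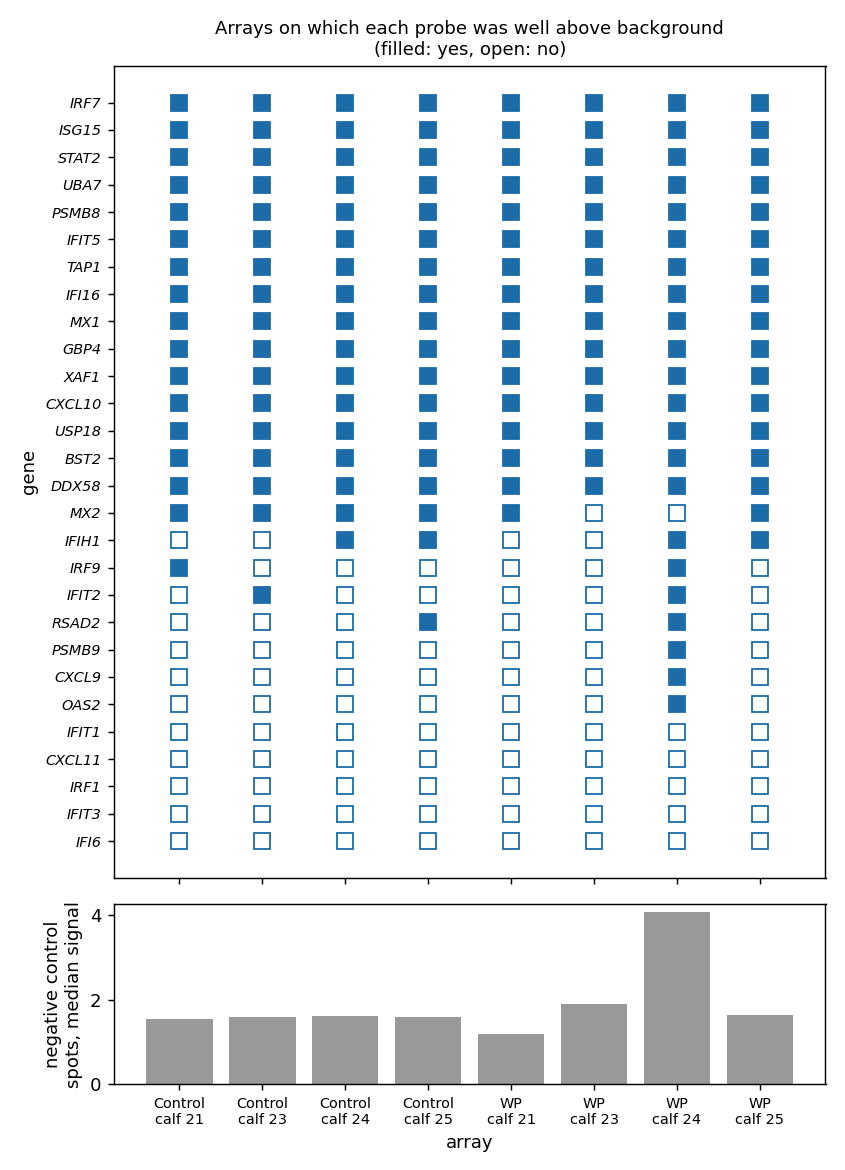
Detection of each interferon-stimulated gene with a probe. Rows are genes, columns are the 8 arrays named by diet and calf, a filled mark means that the scanner software called the probe well above background, and the bars below give the median signal of the negative control spots of each array. The 15 genes at full detection are filled on all 8 arrays, and the rows with 1 or 2 filled marks all include the WP array of calf 24, whose bar stands at 4.06.

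The array reads each gene through a single 60-base oligonucleotide, and 5 of these are shown because the results turn on them: the member with the largest diet difference, a pair of measured members with other roles (a proteasome subunit and an ISG15 protease), and a pair of central members that were too dim to test. They are printed as the file gives them, in lower case throughout, with no part singled out, and the positions come from the array's annotation on the bovine build UMD 3.1.
ISG15: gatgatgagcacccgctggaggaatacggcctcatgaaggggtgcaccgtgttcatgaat
PSMB8: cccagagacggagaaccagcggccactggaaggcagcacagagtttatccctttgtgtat
USP18: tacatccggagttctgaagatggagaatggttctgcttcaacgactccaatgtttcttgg
RSAD2: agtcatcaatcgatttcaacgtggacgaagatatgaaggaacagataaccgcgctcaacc
IRF9: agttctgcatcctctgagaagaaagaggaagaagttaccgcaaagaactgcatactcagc
The ISG15 probe lies at chr16:52714715-52714774 on the minus strand, the PSMB8 probe at chr23:7113377-7113436 (minus), the USP18 probe at chr5:76402744-76402803 (plus) and the IRF9 probe at chr10:20824059-20824118 (minus). The RSAD2 probe is listed at chr11:90012605-90012649 (minus), an interval shorter than the probe. Each of the 5 has at least 1 reading frame without a stop codon across its 60 bases. The exon that each probe lies in was not analysed here. The median GC content was 45.0% for the probes of tested members and 41.7% for those of untested members, against 45.0% for all tested probes.

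The comparison of diets asked whether replacing 50% of the corn flakes with wood kraft pulp changed the members within an animal. With limma and calf as a block, 0 of 17 members passed an adjusted p of 0.05, as did 0 of all 10236 tested probes (0% called). The smallest adjusted p of a member was 0.658. At an unadjusted p under 0.05 the count was 0 of 17 members, against 6.99% of all probes. No member was higher on WP in 4 of 4 animals (11.9% of all probes were), none was lower in 4 of 4 (5.39%), and the arrays of the diets overlapped for all 17 (they did not for 4.86% of probes measured on all arrays).

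The members' differences were small relative to their own spread. For 12 of 17 members the fitted difference lay within 0.25 log2 units of 0, and for 13 the 95% interval lay within 1 log2 unit on either side of 0. The median size of the difference was 0.127 for members and 0.176 for all tested genes, whereas the median SD of the within-calf differences was 0.50 for members and 0.35 for all tested genes. Of the members 52.9% had a negative difference, against 35.6% of all tested genes. The balance of signs differed between animals. In calf 21, 5 members were higher and 12 lower on WP (median -0.14, against 0.12 over all tested genes). It was 6 and 11 in calf 23 (-0.09 against 0.03). In calf 24 it was 10 and 7 (0.12 against 0.14), and in calf 25 it was 11 and 6 (0.15 against 0.0004). The WP array lay in slide row 1 for calves 21 and 23 and in row 2 for calves 24 and 25. A difference between these pairs of animals and one between rows cannot be told apart. The balance depended on the scaling as well, with 13 members lower after quantile scaling and 15 with no scaling. These alternatives moved the median of all tested genes to -0.015 and -0.17, and the members' median relative to it was -0.16 and -0.09, against -0.09 with the 75th-percentile scaling. With normexp background correction the balance went the other way, with 12 members higher and 5 lower. The members' median was then 0.083, against 0.11 over all tested genes.

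ISG15, the ubiquitin-like modifier itself, had the largest difference of the 17. Its level on control was 0.15, 0.30, -0.46 and 1.17 in calves 21, 23, 24 and 25, and on WP 0.58, -0.84, -1.96 and 0.51. It was lower on WP in calves 23, 24 and 25 and higher in calf 21, and the diets overlapped. The fitted difference was -0.72 ± 0.84 (SD, n = 4), with a 95% interval from -1.58 to 0.14 and a limma adjusted p of 0.658. Within slide row 1 the difference was -0.48 and within row 2 it was -0.96. Within a row the diets are of different animals, so these are not within-calf differences. Leaving out 1 animal at a time gave differences from -1.10 (without calf 21) to -0.46 (without calf 24).

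The enzymes of the ISG15 cycle had smaller differences. UBA7, the enzyme that activates ISG15 for conjugation, lay at 0.28, -0.44, -0.48 and -0.22 on control and at 0.12, -0.42, -0.37 and -0.35 on WP in calves 21, 23, 24 and 25. Calf 21 was above the other 3 animals on both diets, and the difference of -0.04 ± 0.13 (SD, n = 4) had the smallest spread among the members. USP18, the protease that removes ISG15 and also restrains the type I receptor, was at -3.02, -2.76, -3.44 and -3.41 on control and at -3.10, -3.48, -2.98 and -3.78 on WP, a difference of -0.18 ± 0.50 that turned positive with normexp background correction. It was lower on WP in 3 of 4 animals, with overlapping diets.

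**Figure D2:**
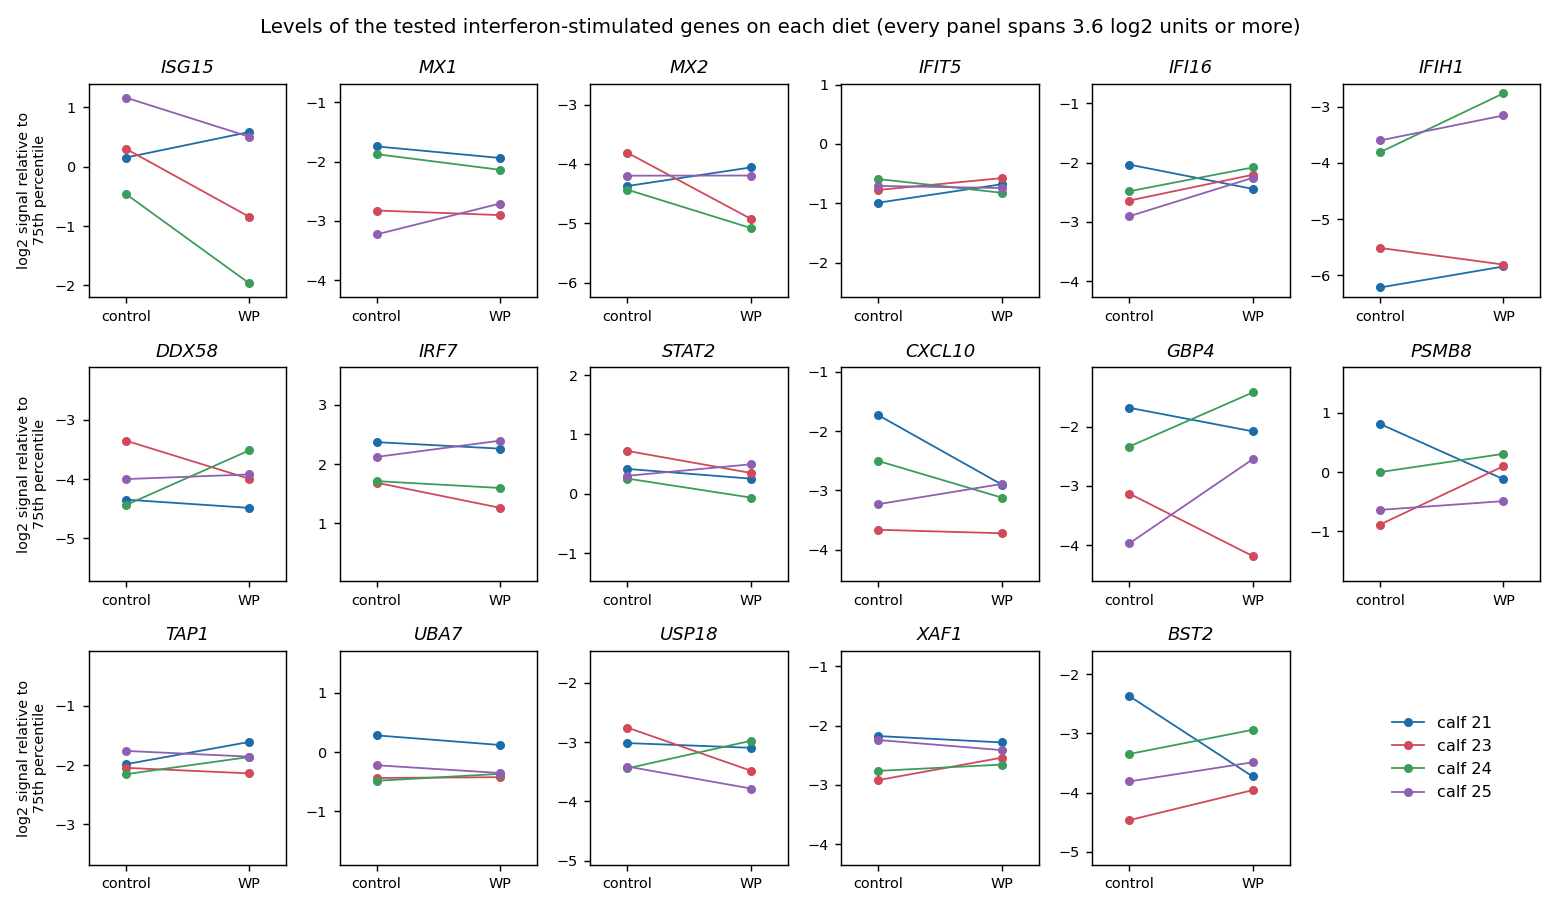
Level of each of the 17 tested interferon-stimulated genes on the control and WP diets. Each panel is 1 gene, the vertical axis is log2 signal relative to the array's 75th percentile, and each line joins the 2 arrays of 1 calf. The lines rise in some animals and fall in others in every panel, and in the panel of IFIH1 calves 24 and 25 lie above calves 21 and 23 on both diets.

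Among the direct antiviral effectors, the 2 MX genes did not share a pattern. MX1, a dynamin-like GTPase that traps viral ribonucleoproteins, lay at -1.74, -2.82, -1.87 and -3.23 on control and at -1.94, -2.90, -2.14 and -2.71 on WP in calves 21, 23, 24 and 25. Calves 21 and 24 were high and calves 23 and 25 low on both diets, whereas the diet difference was -0.00 ± 0.36 (SD, n = 4) and 0.075 with normexp background correction. MX2, a related GTPase, lay at -4.37, -3.81, -4.43 and -4.20 on control and at -4.06, -4.93, -5.08 and -4.19 on WP. The MX2 levels of WP in calves 23 and 24, the lowest pair, were not well above background, and the difference of -0.36 ± 0.64 turned to 0.093 with normexp background correction, was -0.97 with quantile scaling and was -0.11 without calf 23. The genes are neighbours on chromosome 1 (probes at chr1:143204603-143204662 and chr1:143154986-143155045, plus strand), and their levels had r = -0.14 over the 8 arrays.

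IFIT5, which binds the ends of viral RNA, stayed between -0.99 and -0.58 on all 8 arrays, with a difference of 0.06 ± 0.24 that became -0.20 with no scaling. Its relatives IFIT1, IFIT2 and IFIT3 had probes near it on chromosome 26 but were not well above background on 6 or more arrays. XAF1, which promotes apoptosis, lay between -2.92 and -2.18, with a difference of 0.05 ± 0.25 that became negative with quantile, cyclic loess or no scaling. BST2 (tetherin), which holds budding virus at the cell surface, lay at -2.37, -4.46, -3.35 and -3.81 on control and at -3.73, -3.96, -2.94 and -3.49 on WP in calves 21, 23, 24 and 25. It was lower on WP in calf 21 by 1.36 and higher in the other 3 animals, and the difference was -0.03 ± 0.89, which was 0.41 without calf 21 and 0.083 with normexp background correction.

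GBP4, a guanylate-binding GTPase induced mainly by interferon gamma, had the widest spread of within-calf differences. It lay at -1.68, -3.13, -2.34 and -3.97 on control and at -2.08, -4.18, -1.43 and -2.55 on WP in calves 21, 23, 24 and 25. Calves 21 and 24 were above calves 23 and 25 on both diets. The difference was 0.22 ± 1.14 (SD, n = 4), which was 0.64 without calf 23 and turned to -0.01 without calf 24, to -0.18 without calf 25 and to -0.04 with no scaling.

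The sensors of nucleic acid were DDX58, IFI16 and IFIH1. DDX58 (RIG-I), a cytosolic RNA sensor, lay between -4.48 and -3.35, and its difference of 0.05 ± 0.65 became -0.59 with quantile scaling, -0.36 with cyclic loess scaling and -0.21 with no scaling. IFI16, which binds DNA, was at -2.03, -2.64, -2.48 and -2.91 on control and at -2.44, -2.21, -2.08 and -2.26 on WP, higher on WP in calves 23, 24 and 25 and lower in calf 21, with a difference of 0.27 ± 0.46. This was 0.0069 with no scaling, 0.074 with quantile scaling, 0.49 without calf 21 and 0.14 without calf 25. IFIH1 (MDA5), which recognises long double-stranded RNA, was well above background on both arrays of calf 24 (-3.81 on control, -2.76 on WP) and of calf 25 (-3.60 and -3.16), and on no array of calf 21 (-6.22 and -5.84) or calf 23 (-5.51 and -5.81). Its diet difference was 0.39 ± 0.55, negative with quantile or cyclic loess scaling, 0.17 without calf 24 and 0.62 without calf 23.

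The transcription factors of the pathway were measured through IRF7 and STAT2. IRF7, which amplifies type I interferon production, was at 2.37, 1.69, 1.71 and 2.12 on control and at 2.26, 1.26, 1.60 and 2.39 on WP in calves 21, 23, 24 and 25. Calves 21 and 25 were above calves 23 and 24 on both diets, and the diet difference was -0.09 ± 0.29 (SD, n = 4). STAT2, a subunit of ISGF3, lay between -0.06 and 0.72, was lower on WP in 3 of 4 animals and had a difference of -0.17 ± 0.26, which ranged from -0.29 to -0.10 when 1 animal was left out.

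The chemokine and antigen-processing members were measured through CXCL10, PSMB8 and TAP1. CXCL10, which attracts T cells through CXCR3, was at -1.73, -3.66, -2.50 and -3.23 on control and at -2.90, -3.72, -3.12 and -2.89 on WP in calves 21, 23, 24 and 25, with the highest value on control of calf 21. Its difference of -0.38 ± 0.66 moved to -0.11 without calf 21 and to -0.06 with normexp background correction. PSMB8, an inducible subunit of the immunoproteasome, was at 0.81, -0.88, -0.00 and -0.64 on control and at -0.12, 0.10, 0.31 and -0.49 on WP. It lay within the control range on every WP array, with a difference of 0.13 ± 0.79. Leaving out calf 21 gave 0.48, leaving out calf 23 gave -0.16, and the unscaled signals gave -0.13. TAP1, a subunit of the peptide transporter of the endoplasmic reticulum, lay between -2.15 and -1.61 on all 8 arrays, with a difference of 0.12 ± 0.25 that was negative with quantile or no scaling. PSMB8 and TAP1 neighbour each other on chromosome 23, and their levels had r = -0.17 over the 8 arrays.

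**Figure D3:**
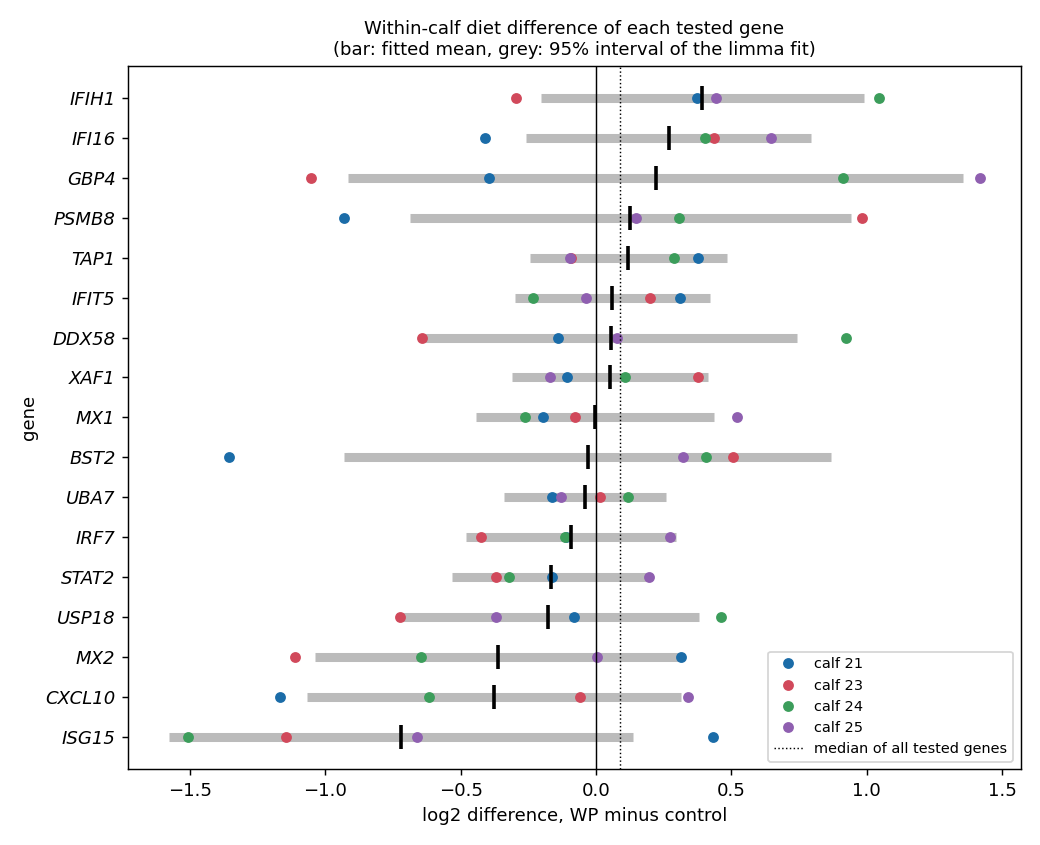
WP minus control, in log2 units, for each of the 17 tested genes. Points are the 4 calves, the bar is the fitted mean and the grey line its 95% interval from the limma fit, and the dotted line is the median of all tested genes, 0.087. Every interval includes 0, and the points of each gene fall on both sides of 0.

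The second comparison asked whether members differed between animals across both of their arrays. With the limma F test over the 4 animals, 0 of 17 members passed an adjusted p of 0.05, and 1 of 10236 probes did (0.00977%). At an unadjusted p under 0.05 the count was 5 of 17 members, ISG15, MX1, IFIH1, IRF7 and UBA7, against 4.98% of all probes. Across the other scalings, filters and left-out animals it ranged from 3 to 6 members. The smallest adjusted p was that of IFIH1 (0.367 in limma). IFIH1 was tested only because both arrays of calves 24 and 25, where it was high, met the filter of 4 arrays, so its place among the 5 supports nothing. Its mean level in calves 24 and 25 was -3.33, against a measured mean of -5.84 in calves 21 and 23. Since the latter was not well above background, it was replaced on each array by the lowest signal among probes well above background where that was higher, which gave a mean of -5.28. This made the level at least 3.84-fold higher in calves 24 and 25. These pairs of animals were formed after the values were seen, so the fold is a description.

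The other 4 did not pass an adjusted p of 0.05 either, and the order of the animals was not shared among them. The animal means of MX1 were -1.84, -2.86, -2.01 and -2.97 in calves 21, 23, 24 and 25 (limma adjusted p = 0.817). Those of IRF7 were 2.31, 1.47, 1.65 and 2.26 (limma adjusted p = 0.931). For ISG15 they were 0.37, -0.27, -1.21 and 0.84 (limma adjusted p = 0.931), and for UBA7 0.20, -0.43, -0.43 and -0.29 (limma adjusted p = 0.931). Calf 21 was among the higher animals for MX1, IRF7 and UBA7, calf 25 was highest for ISG15 and lowest for MX1, and calf 23 was lowest for IRF7.

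Slide row was examined as a split that holds both diets. Row 1 held WP for calves 21 and 23 and control for calves 24 and 25. A row difference therefore cannot be told apart from a diet difference that varies between these pairs of animals. With calf and diet in the limma fit, 0 probes passed an adjusted p of 0.05 for row (0% called), and 12.9% did at an unadjusted p under 0.05. The count was 1 of 17 members, GBP4, which was 0.94 log2 units lower in row 1 than in row 2 (limma adjusted p = 0.298). With row as a further block the diet count stayed at 0 of 17, and the same held within each row.

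The third comparison was of the members with each other over the 8 arrays, given as Pearson r. These are descriptions over n = 8 arrays that share animals in pairs, 1 slide and the level of each array. The 136 pairs of members had a median r of 0.031, 73 were positive and 63 negative, and they ranged from -0.64 to 0.86. In all, 10 pairs (7.35%) had r above 0.7, against 3.26% of pairs between a member and one of 10147 other genes and 5.93% of all pairs of tested genes. The median r of a member with any other gene was 0.0015. The median r between members rose to 0.51 with no scaling and to 0.25 with quantile scaling.

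The 10 pairs with r above 0.7 (7.35%, against 5.93% of all pairs of tested genes) fell into these groups. One held MX1, GBP4, CXCL10, PSMB8 and BST2: MX1 and GBP4 had r = 0.86, PSMB8 and BST2 0.85, CXCL10 and BST2 0.85, MX1 and CXCL10 0.76, MX1 and PSMB8 0.72, and GBP4 and BST2 0.72, with IFI16 joined to PSMB8 at 0.79. The other held ISG15, MX2 and STAT2, with r = 0.85 for ISG15 and MX2 and 0.73 for MX2 and STAT2. UBA7 and XAF1 formed a further pair at 0.79. Members of the first 2 groups ran opposite ways in places: ISG15 and IFI16 had r = -0.64, the lowest of all pairs, MX2 and PSMB8 -0.62, and MX2 and IFI16 -0.61. These groups were formed after the values were seen. MX2 was not well above background on WP of calves 23 and 24, where its level was lowest. For the within-calf differences, r of the same 10 pairs ranged from 0.12 (MX1 and PSMB8) to 0.92 (PSMB8 and BST2).

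**Figure D4:**
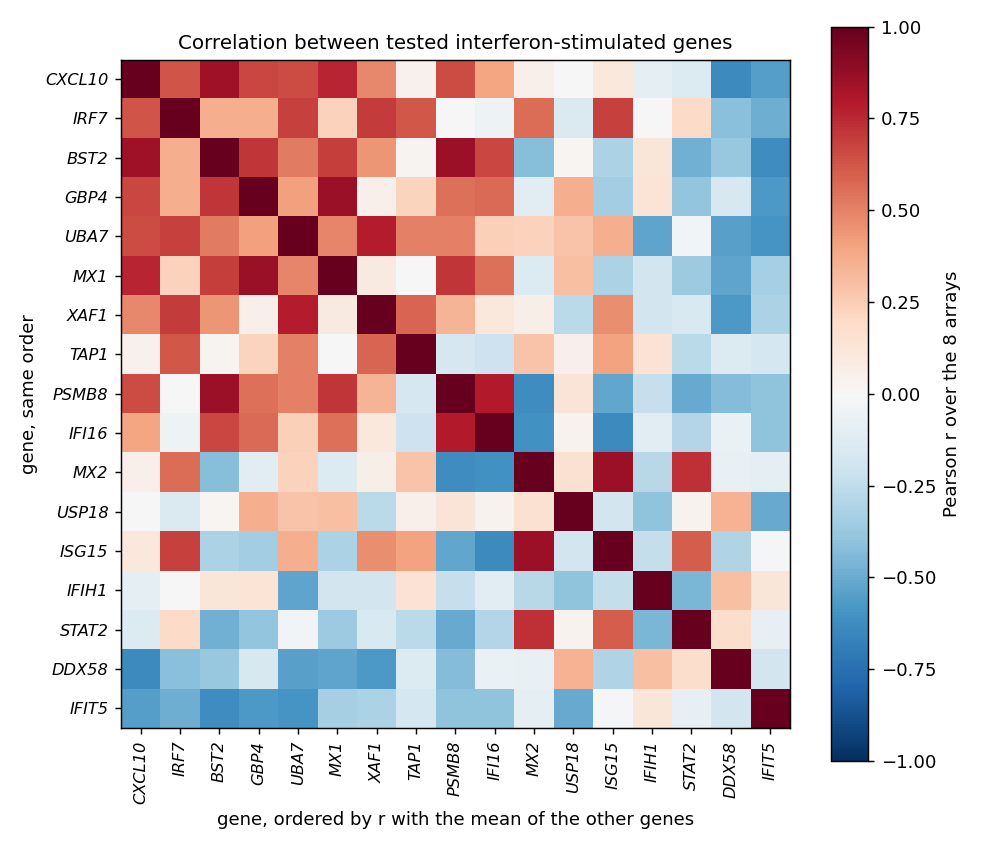
Pearson r between the levels of the 17 tested genes over the 8 arrays. Rows and columns are genes and colour gives r. The highest value is 0.86 (MX1 with GBP4) and the lowest is -0.64 (ISG15 with IFI16).

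Set against the mean of the other 16 members, CXCL10 had r = 0.79, IRF7 0.72, BST2 0.69 and GBP4 0.68, whereas IFIT5 had -0.70 and DDX58 -0.45. The array of control in calf 21 was the highest of the 8 for 7 of the 17 members. The mean level of the members, each centred on its own mean, was 0.29 on that array, and the lowest was -0.38 on WP of calf 23. On control of calf 21, 13 members were above their own mean, and on each array of calf 23 it was 5. By the rule set for genes outside the lists, the 10 named genes whose level was most like the mean of the members over the 8 arrays were GINS1 (r = 0.94), MED29, LIM2, SUV39H2, EVI5, WDR83, WDR24, NBR1, BOP1 and IL11 (r = 0.90).

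Markers of immune and stromal cells varied over the same arrays. The leukocyte markers, of which 3 of 3 were tested (PTPRC, LAPTM5 and CORO1A), ranged in mean centred level from -1.53 to 1.61 on control and from -0.42 to 1.01 on WP, highest on control of calf 21 and WP of calf 24. Their mean had r = 0.88 with IFI16, 0.80 with PSMB8, 0.70 with BST2, 0.65 with GBP4, 0.63 with MX1 and 0.48 with CXCL10. The r was -0.66 with IFIT5, -0.59 with ISG15 and -0.45 with MX2. The T and NK cell markers, 8 of 16 tested, ranged from -0.69 to 0.85 on control and from -0.44 to 0.88 on WP and had r = 0.82 with GBP4. Control of calf 21 was the highest array for the leukocyte markers and also for MX1, CXCL10, PSMB8, BST2, IFI16, UBA7 and XAF1. Of these members, UBA7 and XAF1 had r of 0.35 and -0.003 with the leukocyte mean. GBP4 was highest on WP of calf 24, and the part of immune cells in these levels was not tested.

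Other marker lists ran with several members, in both directions. The macrophage and dendritic cell markers, 9 of 12 tested, ranged from -0.27 to 0.68 on control and from -0.49 to 0.31 on WP, and had r = -0.87 with IFIT5. The fibroblast markers, 9 of 10 tested, ranged from -0.86 to 0.55 on control and from 0.01 to 0.87 on WP. They had r = 0.93 with IFI16, 0.79 with PSMB8, 0.78 with BST2 and 0.73 with GBP4, but -0.65 with ISG15 and -0.64 with MX2. The endothelial markers, 8 of 9 tested, ranged from -0.88 to 0.16 on control and from -0.14 to 0.61 on WP. Their r was -0.92 for MX2, -0.75 for STAT2 and -0.73 for ISG15, but 0.74 for PSMB8 and 0.73 for IFI16. The smooth muscle markers, 6 of 8 tested, had r = -0.82 with ISG15, -0.78 with STAT2 and -0.71 with MX2. ISG15 and MX2 were lowest on WP of calves 24 and 23, the arrays where the endothelial markers were highest (0.61 and 0.45). The fibroblast markers were also raised on control of calf 21 (0.55) and WP of calf 25 (0.30). On those arrays ISG15 was at 0.15 and 0.51 and MX2 at -4.37 and -4.19, not among their lowest levels. The part of stromal cells in the diet differences of ISG15 and MX2 was not tested. The epithelial markers ranged from -0.07 to 0.29 on control and from -0.47 to 0.22 on WP, and 12 of 17 had a negative diet difference (median -0.31). The stromal lists went the other way. A positive difference was found for 8 of 9 fibroblast markers (median 0.66) and 8 of 8 endothelial markers (0.41). The same held for 6 of 6 smooth muscle markers (0.42). Over all tested genes the median was 0.087, and 35.6% were negative. In calves 21, 23, 24 and 25 the fibroblast median was -0.31, 0.39, 1.26 and 1.02. The endothelial median was -0.34, 1.53, 0.34 and 0.39, and that of smooth muscle 0.17, 0.42, 0.51 and 0.04. Calf 21 was thus reversed for fibroblast and endothelial markers. No stromal marker passed an adjusted p of 0.05 in limma. The part of the WP array of calf 24, with its higher negative-control signal, was not tested.

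**Figure D5:**
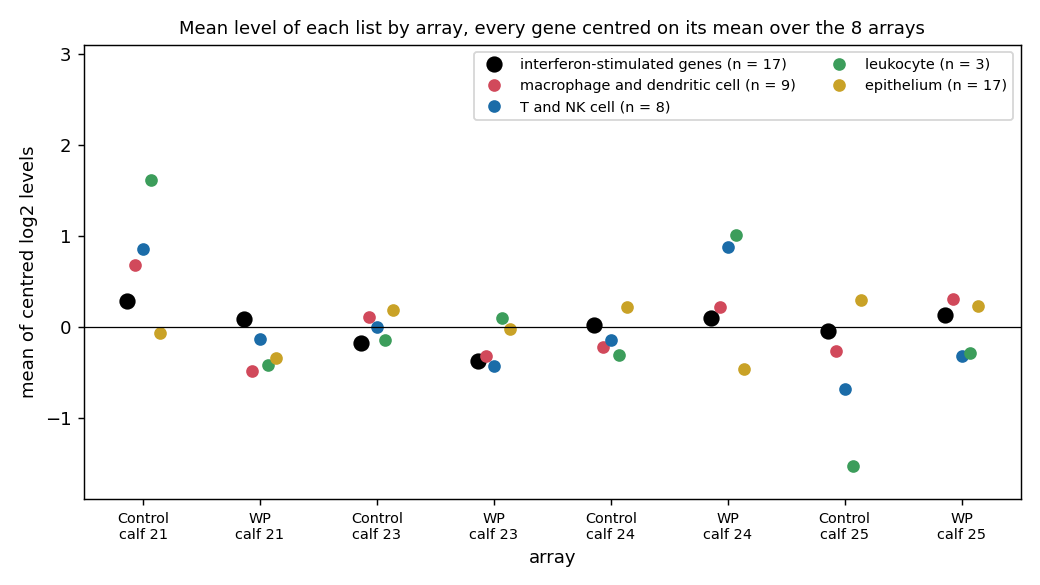
Mean level of the 17 tested interferon-stimulated genes and of 4 marker lists on each array, every gene centred on its mean over the 8 arrays. The horizontal axis gives diet and calf and the vertical axis is in log2 units. The interferon-stimulated genes span -0.38 to 0.29, whereas the leukocyte markers span -1.53 to 1.61 with their highest points at control of calf 21 and WP of calf 24.

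The other genes of the pathway were taken from fixed lists, and in limma 0 genes of any list passed an adjusted p of 0.05 for diet. Most of those named below were picked from their lists for a small diet p in these same data. For them a shift the same way in 4 of 4 animals therefore supports nothing. Over all probes, 11.9% were higher and 5.39% lower on WP in 4 of 4 animals. Among the ligands 1 of 15 was tested, IFNB3, an interferon beta gene that was well above background on 4 arrays, with a difference of 0.30 ± 1.08 that was negative with quantile or cyclic loess scaling. IFNG, the gene of interferon gamma, was so on 0 arrays. Of the receptor and JAK-STAT genes, 8 of 10 were tested, with 3 higher and 5 lower on WP and a median of -0.02.

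IL10RB, a shared chain of the receptor for type III interferon, was lower on WP in 4 of 4 animals by a mean of 0.38 (difference -0.38 ± 0.18, limma adjusted p = 0.658). IFNAR2, a chain of the type I receptor, was higher in 4 of 4 (0.56 ± 0.51, adjusted p = 0.658), with 1.28 in calf 24 and 0.16 to 0.58 in the other 3 animals, whereas the probe of its partner IFNAR1 was well above background on 0 arrays. The kinases differed in size: TYK2 had -0.35 ± 0.47 and JAK1 -0.05 ± 0.22. TYK2 was lower in 4 of 4, with -1.04 in calf 21 and -0.25 to -0.04 in the other 3 animals. The receptor chains for interferon gamma lay near 0, with -0.04 ± 0.03 for IFNGR2, lower in 4 of 4, and -0.00 ± 0.32 for IFNGR1. None of these receptor and kinase genes passed the test.

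Of the negative regulators 6 of 7 were tested, 3 higher and 3 lower, and with no scaling 0 were higher. The phosphatase PTPN6 had the largest difference, -1.09 ± 1.01, lower in 3 of 4 animals (limma adjusted p = 0.658). The phosphatase PTPN11 had 0.15 ± 0.14 and the JAK inhibitor SOCS1 0.13 ± 0.24, both negative with no scaling. Of the nucleic acid sensing genes 8 of 17 were tested, 1 higher and 7 lower, or 4 and 4 with normexp background correction. The higher one was the kinase TBK1, at 0.38 ± 0.39 and higher in 4 of 4 animals, with 0.95 in calf 24 and 0.05 to 0.32 in the others. The adaptor MYD88 had -0.26 ± 0.44, the adaptor MAVS -0.12 ± 0.11 and the transcription factor IRF3 -0.06 ± 0.29 (0.02 with normexp background correction). STING1, the adaptor of DNA sensing, had -0.10 ± 0.82 over 3 animals, since a spot on 1 array was marked an outlier and dropped, and its difference was 0.13 with normexp background correction.

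Of the 30 other interferon-stimulated genes 22 were tested, with 17 higher and 5 lower on WP and a median of 0.17; with quantile scaling 10 were higher and the median was -0.10, and with no scaling 7 were higher and it was -0.09. EIF2AK2, the RNA-activated kinase PKR, was lower in 4 of 4 animals at -0.49 ± 0.38 (limma adjusted p = 0.658), with -0.04 in calf 25. Its probe was well above background on 7 arrays. IFITM3, which blocks viral entry, had 0.65 ± 0.86 and TDRD7 0.50 ± 0.52 (-0.16 with quantile scaling), each higher in 3 of 4 animals. IFITM3 was 1.83 higher on WP in calf 24, the animal whose WP array had the higher negative-control signal, and the part of that array in this value and in those of IFNAR2, TBK1 and B2M was not tested.

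Of the interferon gamma targets 7 of 15 were tested, 5 higher and 2 lower, but 2 higher and 5 lower with quantile or no scaling. The transcription factor IRF2 had 0.44 ± 0.49, the chemokine CCL5 -0.42 ± 1.29 (0.03 with normexp background correction) and the adhesion molecule ICAM1 0.28 ± 1.11 (-0.05 with quantile scaling). Of the class I antigen processing genes 13 of 14 were tested, 8 higher and 5 lower, with a median of 0.05 that was -0.21 with no scaling. The peptide-trimming enzyme ERAP2 was higher in 4 of 4 animals at 0.34 ± 0.22. The class I light chain B2M had 0.50 ± 0.58 (1.22 in calf 24, and a mean of -0.04 with quantile scaling). The class I heavy chain JSP.1 had 0.60 ± 1.04, and B2M and JSP.1 were each higher in 3 of 4. JSP.1 was well above background on only 6 arrays. It was lowest in calf 21, 1 of those 3 animals, at -6.62 on control and -6.00 on WP. None of the named pathway genes passed an adjusted p of 0.05 in limma, and their smallest adjusted p was 0.658, as for ISG15.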

How the data were processed

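Rumen epithelium RNA (500 ng, Cy3) was measured on 8 Agilent arrays of design 072598. The deposited scanner files hold spot intensity, with a processed signal already background-corrected by Feature Extraction (version 11.0.1.1 in the file headers, but 9.5 in the submitters' notes on processing). A value table from the authors was deposited as log2 values. Each of its columns matched the log2 processed signal after subtraction of a constant (slopes 0.99998 to 1.00, column medians -3.07 to -2.26), and it served as an alternative.

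From the 15008 probes, 536 control spots and 97 outlier spots were left out, replicate spots were averaged, with 0 saturated spots. Gene names came from RefSeq (ARS-UCD2.0, names only): 11194 by accession, 3085 by symbol, 40 by an older symbol, and 689 kept the array's name. Probe positions are the array's own, on UMD 3.1.

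WP was set against control by lmFit and eBayes of limma 3.58.1 (R 4.3.3), two-sided and with calf as a block, with p-values adjusted by Benjamini-Hochberg over all 10236 tested probes. The same fit gave the F test over calves, and a fit with row added gave the row test. An error after ± is the SD of the 4 within-calf differences. The pairing comes from the calf numbers in the labels. Deviations from the diet means of a calf's 2 arrays had r of 0.009, 0.195, 0.06 and 0.0475 for calves 21, 23, 24 and 25. These r were low and no r between different calves was set beside them. They do not back the pairing, which rests on the labels. The limma steps were tested on simulated data. The number of arrays limits the precision.

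The members and lists were chosen with earlier results of these data known, so no list was tested as a set. All members are named, and from each pathway list the 3 tested genes of smallest unadjusted diet p, plus IFNAR1, IFNAR2, IFNGR1, IFNGR2, JAK1, TYK2, IRF3, STING1, B2M and EIF2AK2; 1 further gene of the rule is not reported here. Genes outside the lists were named by their correlation with the members' mean. Promoter motifs were not analysed here.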

Additional observations from a re-analysis of the deposited data

Results flagged for a closer look

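Among 34 groups of 4 arrays (17 tested members on each diet), 1 held an array far from the others. UBA7 on WP was 0.12 in calf 21 (0.1189) against -0.42 to -0.35 in the other 3 animals, and that gap was 0.87 of the whole range, above Dixon's 95% critical value for 4 values. Chance alone gives such a gap in about 1 of 20 groups, and 34 groups were examined, so a single flag is not unusual. Calf 21 was also the highest animal for UBA7 on control, at 0.28.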

How the results depend on the processing

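The count of probes that differed by diet was 0 under every alternative run, and so was that of members; the smallest adjusted p of a member lay between 0.346 (normexp background correction) and 0.847 (no scaling). Without the replicate block the diet count was 0, the members' median -0.0038 and the smallest member adjusted p 0.674, so the block changed no call. The count of probes that differed between calves, 1 as reported, was 20 with normexp, 2 with no scaling, 0 with no filter, 2 with probes above background on all 8 arrays and 0 to 2 when 1 calf was left out. For slide row it was 92 with normexp. The members' median difference was 0.083 with normexp, -0.15 with cyclic loess, -0.17 with quantile scaling, -0.27 with no scaling and -0.11 to 0.033 without 1 calf. The median r between members was 0.15 with normexp, 0.25 with quantile scaling, 0.51 with no scaling, 0.11 with no filter and -0.030 to 0.10 without 1 calf. Members with an unadjusted p under 0.05 between calves numbered 3 with no scaling and 3 to 6 without 1 calf. None of the members' diet differences passed the test, and these turned sign. With normexp they were MX1 (0.075), MX2 (0.093), USP18 (0.087) and BST2 (0.083). With quantile scaling they were IFIH1 (-0.070), DDX58 (-0.59), TAP1 (-0.020) and XAF1 (-0.27). With cyclic loess they were IFIH1 (-0.18), DDX58 (-0.36) and XAF1 (-0.10). With no scaling they were IFIT5 (-0.20), DDX58 (-0.21), GBP4 (-0.041), PSMB8 (-0.13), TAP1 (-0.14) and XAF1 (-0.21). Within slide row 1 they were MX1 (0.13), IFIH1 (-2.12), DDX58 (-0.020), STAT2 (0.023), UBA7 (0.20) and USP18 (0.14), and within row 2 PSMB8 (-0.054) and BST2 (0.20); within a row the diets are of different calves. Leaving out 1 calf gave -0.18 to 0.08 for MX1, -0.023 to 0.16 for IFIT5, -0.23 to 0.29 for DDX58, -0.22 to 0.016 for IRF7, -0.18 to 0.64 for GBP4, -0.16 to 0.48 for PSMB8, -0.39 to 0.0044 for USP18, -0.057 to 0.13 for XAF1 and -0.21 to 0.41 for BST2. The cause of these changes was not tested. For members not well above background on most arrays the signal sets the limit, and their values carry no order.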
